A study of Arabidopsis thaliana with 18 samples.

Results

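The comparison described here is that of 12 h against 0 h of estrogen in cultured Arabidopsis thaliana cells of the SND1 line, in which estrogen switches on the transcription factor SND1. It rests on 6 of the 18 arrays of the series, the 3 titled as SND1 cells at 12 h and the 3 titled as SND1 cells at 0 h. The other 12 arrays hold wild-type (wt) cells and cells of the estrogen-inducible VND6 line, each at 0 h and 12 h with 3 arrays a group. RNA was measured on Affymetrix ATH1 arrays, on which 1 probe set reports on a transcript. Estrogen was added at 2 µM to all 3 kinds of cell, wt included, so that wt cells at 12 h carry the treatment without an inducible factor; the labels name no other agent or allele. The labels used here do not give the promoter of the inducible construct, the number of independent transformants behind the line, or whether the 3 replicates were separate cultures, so the p-values measure the spread between these arrays, which may be technical.

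SND1 is a NAC transcription factor that acts as a master switch of the secondary wall in fibre cells, the supporting cells of the stem. VND6, of the same family, drives the formation of vessel elements, which lay down a patterned wall and then die. A secondary wall is built of cellulose, of xylan that carries glucuronic acid and acetyl side groups, and of lignin, a polymer of phenolic alcohols. Cellulose is made at the plasma membrane by complexes that move along cortical microtubules, whereas xylan is made in the Golgi and secreted.

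In the annotation used here, 26 of 141 genes on lists for wall formation, cell death and other cell types were named on the array, and 23 were tested. No member of the lists of NAC regulators, secondary wall cellulose synthesis, phloem, or suberin and endodermis was among the genes tested, and the SND1 transcript itself was not analysed here. Of the fibre and secondary wall markers IRX10 and IRX15 could be read, and both rose, as described below. Of the vessel markers PRX66 (AT5G51890) could be read, and it is given with the lignin genes. The gene symbols of further families (from the trichome birefringence-like to the RNA polymerase family) were grouped after the values had been seen, and their counts are descriptions without a test of the group.

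The 6 arrays were alike in brightness, with median signals of 121.7 to 131.9 on a scale whose trimmed mean is near 500. Replicates 2 and 3 resembled each other more than either resembled replicate 1: Spearman's rho across probe sets was 0.989 at 0 h and 0.991 at 12 h between replicates 2 and 3, and 0.950 to 0.958 between replicate 1 and the others. Signals of single arrays are given in the order of replicates 1, 2 and 3, and ± stands for the SD of a group (n = 3). Signals of different probe sets are not compared as RNA levels. In these bulk samples a smaller number of cells of a type and less RNA per cell cannot be told apart.

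Many genes changed between 0 h and 12 h in the SND1 line. In limma 7951 of 15715 tested probe sets passed at an adjusted p under 0.05 (50.6%), of which 4374 rose (27.8%) and 3577 fell (22.8%). Every change is given as a difference of log2(signal + 4.32), a scale that understates the change of dim probe sets, and its standard error (SE) comes from the limma fit over all 18 arrays. Rises and falls were large: 3272 called probe sets rose by more than 1 and 2776 fell by more than 1, whereas 355 rose and 539 fell by more than 3. The median change over all tested probe sets was 0.08. Among the 8703 genes tested, read from 1 probe set each, 28% rose and 21.3% fell. Each count of a gene set below stands against those shares.

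The changes were consistent between replicates. Among the 7951 called probe sets, the 3 arrays at 12 h did not overlap the 3 at 0 h in 7860 (98.9%), against 66.4% of all tested probe sets. All 3 changes computed between arrays of the same replicate number ran in the fitted direction in 7924 (99.7%). The called probe sets were picked by a test on these same arrays that favours a small spread, so both shares were bound to be high. No share over all tested probe sets is given for the numbered changes. Across the 15715 probe sets the numbered changes correlated at r = 0.938 between replicates 2 and 3, at 0.873 between 1 and 2 and at 0.863 between 1 and 3, which is a description since probe sets are not independent and the arrays share the processing.

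**Figure D1:**
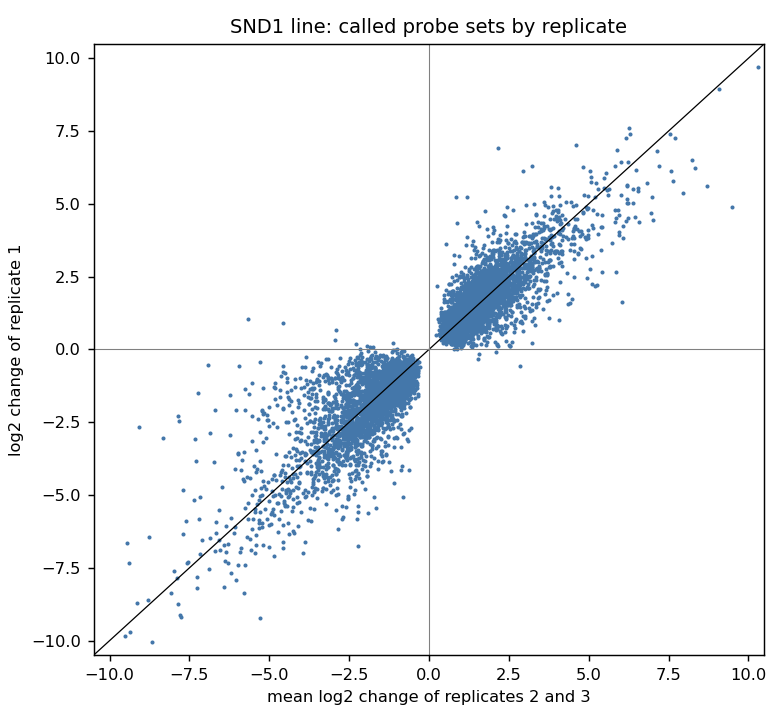
Each point is 1 of the 7951 called probe sets of the SND1 line, with the mean log2 change (12 h minus 0 h) of replicates 2 and 3 on the horizontal axis and that of replicate 1 on the vertical axis; the line marks equal change. Nearly all points lie in the quadrants where the replicates share the direction (99.7% in all 3 numbered changes), with more scatter among falls that were larger in replicates 2 and 3. The points were picked by a test on these same arrays, which favours such agreement.

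Wild-type cells given the same treatment changed as widely, with 8501 probe sets called between 0 h and 12 h (54.1%), 32.1% higher and 22% lower. The changes of the SND1 line and of wt cells correlated at r = 0.807 across the 15715 probe sets, again as a description. The SND1 response differed from the wt response in 923 probe sets (5.87%), higher in 546 (3.47%) and lower in 377 (2.4%), so that most changes within the line were not shown to differ from those of wt cells. That count rests on the replicates used. It was 2274 with the replicate number as a block, 996 higher and 1278 lower, 62 with replicates 2 and 3 averaged, 61 higher and 1 lower, and 463 to 1041 with 1 array left out. The wt change is therefore given beside many genes and groups. A change given without a wt value was not shown to be particular to the SND1 line.

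Genes of xylan synthesis rose in the SND1 line. Of 22 xylan genes listed 4 were tested, of which 3 rose and 1 did not pass, with a median change of 2.92 in the SND1 line and -0.04 in wt cells. IRX15, a Golgi protein needed for xylan of normal length, gave signals of 2.68, 3.07 and 2.71 in replicates 1, 2 and 3 at 0 h and of 499.6, 578 and 707 at 12 h. It was thus near the floor of the scale on all arrays at 0 h and clearly measured on all arrays at 12 h. The rise was 6.38 (SE 0.42, adjusted p = 1.36e-08), against -0.20 in wt cells (adjusted p = 0.718).

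IRX15L, the close homologue of IRX15, had signals of 4.6, 3.69 and 2.93 at 0 h and 82.4, 185 and 195 at 12 h. Replicate 1 was the lowest at 12 h, and the groups did not overlap. It rose by 4.21 (SE 0.63, adjusted p = 4.61e-05). IRX10, a glycosyltransferase that extends the xylan backbone, was already measured at 0 h, with 137, 110.0 and 126 at 0 h and 376, 382 and 414 at 12 h, and rose by 1.62 (SE 0.21, adjusted p = 1.12e-05). GUT1, the homologue of IRX10, did not pass, with a mean of 859 ± 235 at 0 h and 1010.0 ± 77.7 at 12 h (SD, n = 3) and a change of 0.27 (adjusted p = 0.481). The groups overlapped for GUT1.

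The response of IRX15 exceeded that of wt cells by 6.57 (SE 0.59, adjusted p = 9.32e-06), that of IRX15L by 4.52 (adjusted p = 0.0071) and that of IRX10 by 1.36 (adjusted p = 0.0141). When replicates 2 and 3 were averaged into 1 value, IRX15 still passed, and IRX15L (adjusted p = 0.12) and IRX10 (0.461) did not.

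TBL34, which adds acetyl groups to xylan, had the third largest rise among the genes with a name or locus of their own. Its signals were 20.4, 5.39 and 1.09 at 0 h and 1855, 2397 and 2284 at 12 h, so that the 0 h arrays scattered at the floor and the 12 h arrays lay close together. The rise was 7.64 (SE 0.71, adjusted p = 3.38e-07). Wild-type cells also rose, by 2.58 (adjusted p = 0.00579), and the SND1 response was higher by 5.06 (SE 1.0, adjusted p = 0.00705, and 0.284 with replicates 2 and 3 averaged). Of the 12 tested members of the trichome birefringence-like family 4 rose and 8 did not pass, against 28% of all 8703 genes tested that rose and 21.3% that fell. Such a share lies near that of all genes, as it does for the tetraspanins, the IQD genes, the carboxypeptidase-like family and the exocyst below. With the replicate number as a block 7 rose and 2 fell. Without SND1 replicate 2 at 12 h 1 member fell. The other 3 that rose did so by less, TBL16 by 1.59 (from 113 ± 20.4 to 346 ± 29.2), TBL37 by 1.48 and TBL18 by 1.27. In wt cells 4 of the 12 members rose.

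**Figure D2:**
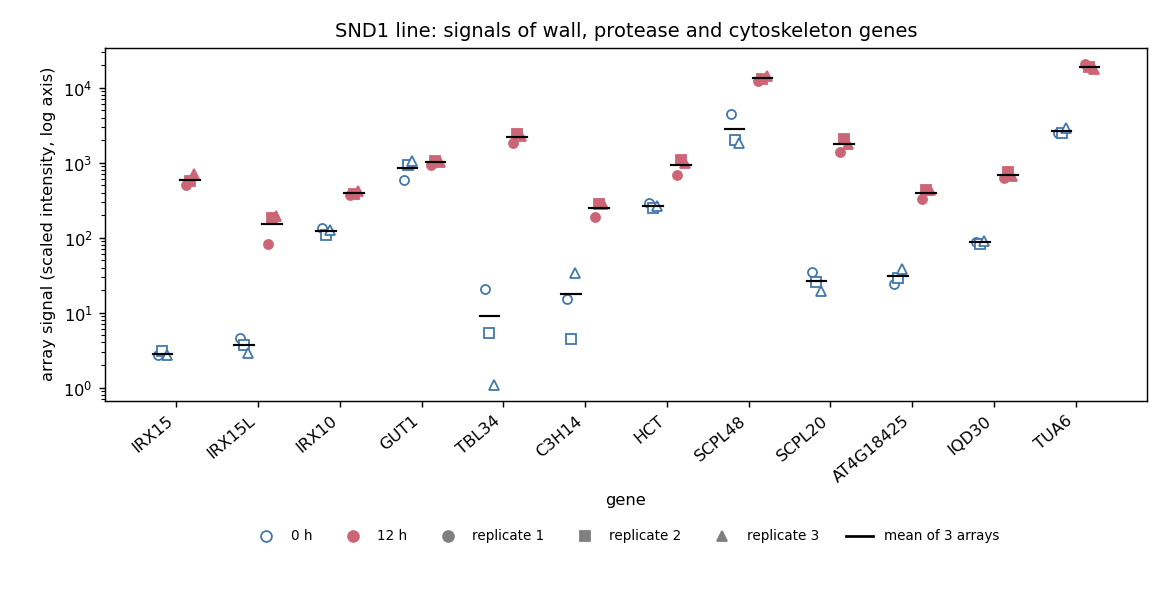
Signals of 12 genes on the 6 arrays of the SND1 line, on a log axis, with open blue symbols for 0 h, filled red symbols for 12 h, 1 symbol shape per replicate and a bar at the mean of 3 arrays. The groups are apart for 11 genes and overlap for GUT1; for SCPL48 replicate 1 lies above the others at 0 h (4525 against 2024 and 1848).

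Other genes of wall polysaccharides rose with them. All 4 tested members of the CSLC family, glucan synthases that make the backbone of xyloglucan, rose, by 2.07 to 2.58. CSLC6 had signals of 83.2, 73.8 and 69 at 0 h and 552, 417 and 456 at 12 h, and the groups lay far apart. In wt cells 3 of the 4 rose, and the difference from wt did not pass for any (adjusted p = 0.0523 for CSLC6, the smallest). The rise of CSLC04, from 373 ± 93.6 to 1729.8 ± 712 (adjusted p = 0.0288), did not pass without SND1 replicate 2 (adjusted p = 0.0894) or 3 (0.0554) at 0 h or replicate 1 at 12 h (0.0997), nor with replicates 2 and 3 averaged (0.133).

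The GH9 family holds endoglucanases, some of which trim cellulose as it is laid down. Of its 5 tested members 4 rose, with a median of 2.64. GH9B5 went from 8.04, 2.45 and 5.27 to 210.5, 191 and 196 and rose by 4.45 (SE 0.74, adjusted p = 1.13e-04). It did not pass in wt cells (0.90), and the difference from wt did not pass either (adjusted p = 0.0564). GH9B7, at 739, 864 and 1004 at 0 h and 6554, 6577 and 7053 at 12 h, rose by 2.96 and by 2.07 in wt cells, and it already stood 1.27 above wt at 0 h (adjusted p = 0.0494). GH9C2 rose by 2.64 in the SND1 line and by 3.66 in wt cells. GH9A3 rose by 1.21 (adjusted p = 0.00324, and 0.0532 with replicates 2 and 3 averaged) and by 2.77 in wt cells, a difference of -1.56 (SE 0.43, adjusted p = 0.0427). The call for that difference was lost when any 1 of 10 arrays was left out, all but SND1 replicate 1 at 12 h and wt replicate 1 at 0 h (adjusted p = 0.0641 to 0.108), with quantile normalization (0.0598), without a filter (0.0685) and with replicates 2 and 3 averaged (0.513).

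Enzymes that make the activated sugars used for wall polymers and glycans rose without exception among those tested, 6 of 6, with a median of 1.21 against 0.40 in wt cells. With replicates 2 and 3 averaged 2 of the 6 passed, PMM and USP. USP, a UDP-sugar pyrophosphorylase, had signals of 428, 406 and 373 at 0 h and 1535, 1662 and 1699 at 12 h. Its arrays were tight within each time, and it rose by 2.01 (SE 0.24, adjusted p = 4.46e-06). In wt cells USP changed by -0.05 (adjusted p = 0.868), and the responses differed by 2.06 (SE 0.34, adjusted p = 0.00178, and 0.174 with replicates 2 and 3 averaged). PMM, a phosphomannomutase on the way to GDP-mannose, rose from 960.4 ± 18.1 to 3927 ± 89.5, by 2.03, and by 1.07 in wt cells.

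Expansins loosen the wall of growing cells, and of 9 tested 4 rose and 5 did not pass, against 28% of all genes tested that rose. Their median was 0.61 in the SND1 line and 2.14 in wt cells, where 6 rose. EXPA4 went from 7.8, 15.3 and 10.9 to 1843, 1195 and 1304 and rose by 6.54 (SE 0.43, adjusted p = 1.37e-08), against 6.41 in wt cells. EXPA9 rose by 4.36 and EXPA8 by 4.03. The differences of these 3 from wt lay between -0.36 and 0.13 and did not pass. EXPA20 did not pass in the SND1 line (change 0.11, adjusted p = 0.824) and rose by 2.14 in wt cells, a difference of -2.03 (SE 0.50, adjusted p = 0.0244). The call for that difference was lost when any 1 of 5 arrays was left out, which were SND1 replicate 1 at 0 h and replicates 2 and 3 at 12 h of both the SND1 line and wt (adjusted p = 0.0505 to 0.0722) and with replicates 2 and 3 averaged (0.329). Of 4 tested xyloglucan endotransglucosylases, which cut and rejoin xyloglucan, XTH19 rose by 4.1, XTH33 rose by 2.54 and the others did not pass, and with the replicate number as a block all 4 rose. For XTH19 replicate 1 was the highest at 12 h, with 984, 502 and 429 in the order of the replicates. In wt cells 3 of the 4 rose, with a median of 2.65 against 2.11 in the SND1 line.

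The lignin list was read through 4 genes, of which 2 rose and 2 did not pass, against 28% of all genes tested that rose. Their median was 0.40 in the SND1 line and 0.00 in wt cells. HCT, an acyltransferase at the branch to the main lignin alcohols, had signals of 294, 249.7 and 261 at 0 h and 682, 1091 and 998 at 12 h. The groups did not overlap and the rise was 1.74 (SE 0.29, adjusted p = 1.21e-04); wt cells rose by 0.91, and the difference did not pass (adjusted p = 0.244). The peroxidases PRX72 and PRX71, of a class that oxidises lignin alcohols in the wall, did not pass. PRX72 was near the floor on all 6 arrays, with 2.89, 3.46 and 7.26 at 0 h and 2.07, 2.00 and 3.2 at 12 h. PRX71 was lower in replicates 2 and 3 than in replicate 1 at both times and changed by -0.35 (adjusted p = 0.723), with the sign turned without replicate 1 at 0 h (0.28) or replicate 3 at 12 h (0.41).

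The remaining lignin gene, AT5G51890 (PRX66), had overlapping groups, with 13, 30.3 and 48.6 at 0 h and 30.8, 115 and 79.1 at 12 h. In the VND6 line it rose by 3.46, and the difference of -2.30 did not pass (adjusted p = 0.187). Its rise of 1.16 in the SND1 line (adjusted p = 0.0477) did not pass with replicate 1 left out at 0 h (adjusted p = 0.227), replicate 2 at 0 h (0.0772), replicate 2 at 12 h (0.221) or replicate 3 at 12 h (0.131), nor with quantile normalization (0.0666), without a filter (0.0699), with the stricter filter at the 60th percentile (0.0634), without a pseudocount (0.0511), only the arrays compared (0.123) or replicates 2 and 3 averaged (0.201).

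Among transcription factors, C3H14 was the single tested member of the list acting below the NAC switches. It is a zinc finger protein known as an activator of secondary wall genes. Its signals were 15.2, 4.46 and 33.9 at 0 h and 189, 278 and 281 at 12 h, so the arrays at 0 h varied near the floor and those at 12 h were all higher. It rose by 3.74 (SE 0.70, adjusted p = 3.49e-04). The change of 1.1 in wt cells and the difference of 2.64 did not pass (adjusted p = 0.2 and 0.13). NAC014, the single NAC gene with a symbol among those tested, fell by 1.4 (SE 0.23, adjusted p = 1.06e-04), from 486 ± 54.9 to 181 ± 16.3.

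Of 11 tested genes of auxin response 2 rose and 5 fell, with a median of -0.39. In wt cells 2 rose and 3 fell, with a median of -0.27. Of all genes tested 28% rose and 21.3% fell. IAA20, a repressor of the Aux/IAA family, rose from 35.2, 7.26 and 25 to 214, 574 and 559, by 4.12 (SE 0.60, adjusted p = 3.04e-05). Replicate 1 was the lowest at 12 h. Its response exceeded that of wt cells by 4.45 (SE 0.84, adjusted p = 0.00528, and 0.0962 with replicates 2 and 3 averaged). IAA33, of the same family, rose by 2.32 (adjusted p = 0.00489, and 0.0825 with them averaged).

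LBD16, a factor through which auxin starts lateral roots, fell with very tight replicates, from 1819, 2003 and 1986 to 335, 336 and 356. It fell by 2.48 (SE 0.43, adjusted p = 1.79e-04), and in wt cells LBD16 changed by 0.06 (adjusted p = 0.923). The call for the difference of -2.54 (adjusted p = 0.0233) was lost, with values of -2.57 to -2.44, when any 1 of 6 arrays was left out, SND1 replicates 2 and 3 at both times and wt replicates 2 and 3 at 12 h (adjusted p = 0.0531 to 0.0621), and with replicates 2 and 3 averaged (0.424). LBD29, a relative with the same role, fell by 2.04 (adjusted p = 0.0122), a call lost without replicate 1 at 12 h (0.0773) and with replicates 2 and 3 averaged (0.0619). GH3.3, which conjugates auxin to amino acids, fell from 20612, 14478 and 11678 to 1287, 287 and 291, a change of -4.98, and fell by 2.29 in wt cells. With replicates 2 and 3 averaged 1 gene of the class rose and 2 fell, and with the replicate number as a block 4 rose.

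Of 16 listed genes of cell death and autolysis 7 were tested, of which 3 rose, 2 fell and 2 did not pass, against 28% and 21.3% of all genes tested that rose and fell, with a median of 0.20; in wt cells 6 of the 7 fell, with a median of -1.63. SCPL48, a serine carboxypeptidase-like protein, had signals of 4525, 2024 and 1848 at 0 h and 12382, 13120.2 and 14591 at 12 h. Replicate 1 started highest, and all arrays at 12 h were above it. It rose by 2.37 (SE 0.46, adjusted p = 4.15e-04), whereas it fell by 2.37 in wt cells (adjusted p = 3.53e-04).

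A pair of listed loci that the annotation does not name also rose. AT4G18425 went from 24.3, 28.8 and 38.1 to 324, 438 and 431 and rose by 3.54 (SE 0.32, adjusted p = 2.46e-07). AT4G04460 went from 11.4, 41.8 and 44.6 to 77.1, 232 and 201, with replicate 1 the lowest at both times, and rose by 2.27 (adjusted p = 0.00701, and 0.0627 with replicates 2 and 3 averaged). Both fell in wt cells, by 1.63 and 1.87. The responses exceeded wt by 4.75 for SCPL48, 5.17 for AT4G18425 and 4.13 for AT4G04460 (adjusted p = 3.67e-04, 7.17e-06 and 0.0126). With replicates 2 and 3 averaged AT4G18425 still passed, and SCPL48 (0.0733) and AT4G04460 (0.192) did not.

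The vacuolar processing enzymes, proteases that act in vacuolar cell death, did not rise. GAMMA-VPE fell from 6395, 4204 and 4033 to 497, 646 and 723, by 2.95 (SE 0.28, adjusted p = 4.96e-07), and ALPHA-VPE fell by 1.74 (adjusted p = 0.002). Both fell in wt cells too, and neither difference passed. BETA-VPE, at 0.20 (adjusted p = 0.676), and SCPL49, at -0.37 (adjusted p = 0.0606), did not pass. SCPL49 passed as lower with replicates 2 and 3 only (adjusted p = 0.0494) and without replicate 2 at 0 h (0.0311), and BETA-VPE turned its sign without replicate 1 at 12 h (-0.05) and with replicates 2 and 3 only (-0.20).

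The wider family of serine carboxypeptidase-like proteins had 13 tested members, of which 5 rose and 8 did not pass. SCPL20 rose most, from 34.4, 25.6 and 19.4 to 1394, 2072 and 1801, by 5.85 (SE 0.50, adjusted p = 1.42e-07), and by 2.59 in wt cells. SCPL25 rose by 2.33, from 214 ± 50 to 1099 ± 287, while wt cells changed by -0.55 (adjusted p = 0.175). The difference from wt was 3.26 for SCPL20 (adjusted p = 0.0119, and 0.0985 with replicates 2 and 3 averaged) and 2.88 for SCPL25 (0.00169, and 0.204). SCPL50, by 2.86, and SCPL45, by 2.11, rose as in wt cells (2.68 and 2.6).

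Cytoskeletal genes rose. Of 22 tested genes of tubulins, kinesins and microtubule proteins 14 rose and 1 fell, with a median of 1.11 and, in wt cells, 1.05 with 12 risen. Tubulins, the subunits of microtubules, made up 7 of them: 6 rose and TUA1 fell. TUA6, an alpha-tubulin, had signals of 2510.0, 2495 and 2888 at 0 h and 20872, 18788 and 17943 at 12 h and rose by 2.87 (SE 0.20, adjusted p = 2.50e-08). TUB6, a beta-tubulin, went from 4318 ± 619 to 13757 ± 1290.4 and rose by 1.68 (SE 0.18, adjusted p = 1.66e-06). It stood 0.72 above wt at 0 h (adjusted p = 0.0488), as did TUB1, by 1.1 (0.0488).

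The beta-tubulins TUB7, TUB1 and TUB9 rose by 2.37, 2.08 and 1.83, and by 1.05, 1.48 and 1.04 in wt cells. TUB5, at low signals of 6.41, 9.2 and 23.3 at 0 h and 64.9, 41.4 and 78.2 at 12 h, rose by 2.01 (adjusted p = 0.024), a call lost without replicate 1 (0.085) or 2 (0.0671) at 0 h, without replicate 1 (0.0595) or 3 (0.0783) at 12 h, and with replicates 2 and 3 averaged (0.0801). TUA1 fell by 0.83 (adjusted p = 0.00199, and 0.0531 with them averaged). Tubulin genes are alike in sequence, and hybridisation between copies cannot be told from these values.

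Proteins that bind or shape microtubules moved unevenly. IQD30 and IQD31, of a family of calmodulin-binding proteins that scaffold at microtubules, rose by 2.92 and 2.88. IQD30 had signals of 87.1, 82.5 and 90.8 at 0 h and 629.6, 759 and 668 at 12 h, tight at both times and 1.59 above wt at 0 h (adjusted p = 0.0117), and changed by 0.34 in wt cells (adjusted p = 0.352), whereas IQD31 rose by 1.91 in wt cells. Of the 8 IQD genes tested 3 rose, with a median of 0.62, and 4 rose in wt cells, with a median of 1.58. KINESIN-13A, a kinesin that takes microtubules apart, went from 989.8 ± 66.7 to 2054 ± 95.9 and rose by 1.05 (SE 0.23, adjusted p = 0.00116). The responses exceeded those of wt cells by 2.57 for IQD30, 1.69 for TUA6, 1.47 for KINESIN-13A and 1.37 for TUB6 (adjusted p = 0.00188, 0.00225, 0.0136 and 0.00498). None of these differences passed with replicates 2 and 3 averaged (adjusted p = 0.143, 0.179, 0.395 and 0.316).

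All 4 tested genes of actin and of the SCAR/WAVE pathway, which nucleates actin filaments, rose in the SND1 line, and 2 of them in wt cells. ACT11, an actin, went from 69.2, 79.5 and 69.6 to 919, 889.6 and 980.0, by 3.6 (SE 0.36). SPK1, which activates the ROP GTPases upstream of the complex, went from 25.9, 27.8 and 35.3 to 399.5, 451 and 450.3, by 3.7 (SE 0.26, adjusted p = 2.57e-08). The arrays of the 2 times lay far apart for both genes. The subunits BRK1 and PIR121 rose by 2.03 and 1.14. SPK1 also rose in wt cells, by 2.01, and its response was higher in the SND1 line by 1.69 (adjusted p = 0.0136, and 0.38 with replicates 2 and 3 averaged). The response of BRK1 was higher than in wt by 1.67 (adjusted p = 0.0434).

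Of 4 tested LIM proteins, which bundle actin filaments, 1 rose and 1 fell. Such shares lie near the 28% and 21.3% of all genes tested that rose and fell. WLIM2a rose from 4.82, 6.2 and 7.06 to 115, 68.7 and 61.5, by 3.01 (SE 0.71, adjusted p = 0.00227), and WLIM2b fell from 7002 ± 698 to 3359 ± 494, by 1.06 (adjusted p = 3.68e-05). WLIM2b fell in wt cells as well, by 2.02. The 2 other members tested did not pass. The SND1 response was higher than that of wt for 2 of the 4 members, against 3.47% of all probe sets tested. A filter at the 60th percentile left out WLIM2a, and none of the 3 members then tested rose. With replicates 2 and 3 only 2 members fell.

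Genes of membrane traffic rose in part. PRA1 proteins are small membrane proteins that bind Rab GTPases along the secretory route, and 4 of 8 tested rose, against 28% of all genes. PRA1.B4 went from 389, 371 and 396 to 8697, 8534 and 9921, by 4.54 (SE 0.30, adjusted p = 1.40e-08), with all replicates close. PRA1.B6 rose by 3.58 and PRA1.B1 by 1.87. Each of the 3 rose in wt cells too, by 1.67, 1.27 and 1.03. The response of PRA1.B4 was higher than in wt by 2.86 (SE 0.43, adjusted p = 8.21e-04, and 0.0865 with replicates 2 and 3 averaged).

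VHA-A1, the proton pump subunit of the trans-Golgi network, rose by 2.84 (SE 0.19), from 122, 109 and 125 to 939, 818 and 872, and its vacuolar counterpart VHA-A3 by 1.48. In wt cells they rose by 1.57 and 1.46, and the response of VHA-A1 was higher in the SND1 line by 1.27 (adjusted p = 0.0125, and 0.39 with replicates 2 and 3 averaged). Of 7 exocyst subunits, which tether secretory vesicles at the plasma membrane, SEC15A rose by 1.44 (adjusted p = 9.23e-05) and 2 others passed. The count was 1 when SND1 replicate 2 or 3 at 0 h or any SND1 replicate at 12 h was left out, without a filter and with replicates 2 and 3 averaged. It was 5 with only the arrays compared, with the replicate number as a block and with replicates 2 and 3 only.

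Tetraspanins, which organise plasma membrane domains, gave 3 rises among 9 tested. TET13 went from 20, 31.5 and 3.63 to 270.0, 477 and 415, by 4.32 (SE 0.58, adjusted p = 1.51e-05), and changed by -0.63 in wt cells (adjusted p = 0.376). Its response was higher than in wt by 4.96 (SE 0.82, adjusted p = 0.00195, and 0.0717 with replicates 2 and 3 averaged). No tetraspanin fell, but 1 did without SND1 replicate 1 at 12 h and 3 did with replicates 2 and 3 only. TET7 rose by 2.79 and TET3 by 1.93, the latter from 2371 ± 271 to 9143 ± 1781.

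Among signalling peptides and receptors, 4 of 7 tested genes of RALF-like and CLE peptides rose and 1 fell, with a median of 2.33. Of all genes tested 28% rose and 21.3% fell. CLE41 and CLE44 encode the same peptide, which restrains xylem formation from the procambium. CLE41 rose from 38.6, 27.6 and 27.9 to 284, 138 and 132, by 2.33 (SE 0.45, adjusted p = 4.21e-04), and replicate 1 was the highest at 12 h. CLE44 fell from 2366, 2776 and 2791 to 607, 545 and 479, by 2.28 (SE 0.31, adjusted p = 1.46e-05). In wt cells CLE41 changed by 0.74 (adjusted p = 0.177) and CLE44 fell by 2.72, and neither difference passed.

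CLE40, a peptide of the root meristem, rose by 2.59 and by 2.56 in wt cells. Of the RALF-like peptides, which signal to receptor kinases at the cell surface, RALFL34 rose by 2.57 from a level 1.2 above wt at 0 h (adjusted p = 0.0222), and RALFL24 rose by 3.48 (adjusted p = 0.00703, and 0.0575 with replicates 2 and 3 averaged). All 3 gibberellin receptors fell. GID1A went from 729, 376 and 459 to 203, 92.9 and 136, by 1.84 (SE 0.42, adjusted p = 0.00167), GID1C fell by 2.06 and GID1B by 1.41 (adjusted p = 0.00557, and 0.0619 with replicates 2 and 3 averaged). Replicate 1 was the highest for GID1A at both times. In wt cells GID1C fell, by 1.67, while GID1A stood at 0.01 and GID1B at -0.73, and no difference from wt passed (adjusted p = 0.0772 for GID1A, the smallest).

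**Figure D3:**
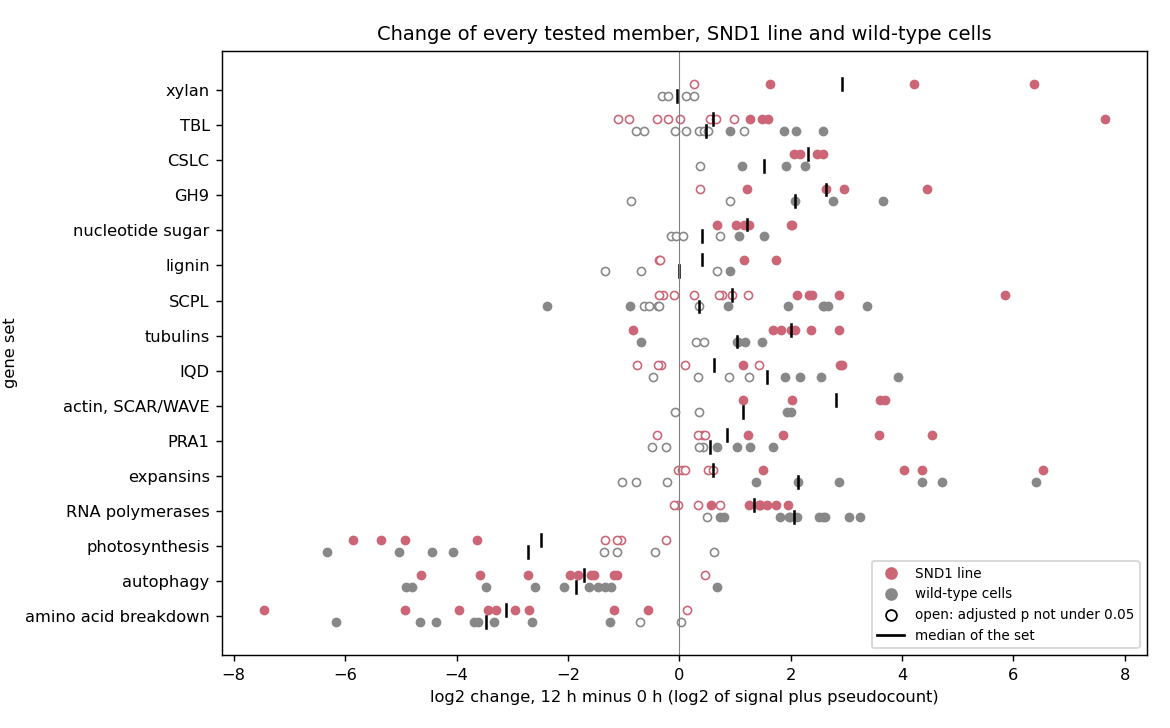
Log2 change between 0 h and 12 h of every tested member of 16 gene sets, with red points for the SND1 line, grey points for wt cells, filled points for an adjusted p under 0.05 and a black bar at the median of the set. The xylan set lies higher in the SND1 line (median 2.92 against -0.04), and autophagy lies low in both (median -1.71 against -1.85).

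Translation, transcription and division were read through a few genes each. EIF4A-2, a helicase of translation initiation, went from 2843, 3165 and 3342 to 13209.8, 13306 and 13749.6, by 2.11 (SE 0.21, adjusted p = 6.27e-07), against 2.55 in wt cells. RRP41, of the exosome that processes ribosomal RNA, rose by 1.65. Of 12 tested subunits of nuclear RNA polymerases 8 rose, with a median of 1.35, and 11 rose in wt cells, with a median of 2.05. NRPB12, shared by the polymerases, rose by 1.96, and the large subunits of RNA polymerase I, which transcribes ribosomal RNA, rose by 1.45 (NRPA1, adjusted p = 0.00373, and 0.0511 with replicates 2 and 3 averaged) and 1.45 (NRPA2).

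Of 8 listed markers of dividing cells 3 were tested, and all 3 rose. MCM7, of the helicase that opens DNA for replication, had signals of 316, 235 and 235 at 0 h and 572, 514 and 543 at 12 h and rose by 1.05 (SE 0.30, adjusted p = 0.00776, and 0.0922 with replicates 2 and 3 averaged). In wt cells it rose by 3.74, from 74.4 ± 23.8 to 1026 ± 206. The SND1 line stood 1.79 higher than wt at 0 h (adjusted p = 0.00504), one of 368 probe sets that differed at 0 h (2.34%), 1.88% higher and 0.465% lower, and its response was lower by 2.69 (adjusted p = 0.00121, and 0.104 with them averaged). The mitotic kinases AUR1 and AUR2 rose by 1.78 and 1.38. In wt cells AUR1 did not pass (0.57) and AUR2 rose by 1.79. For AUR1 replicate 1 was highest at 12 h, with 461, 136 and 204. Their calls were lost without replicate 1 at 12 h (adjusted p = 0.0551 for AUR1 and 0.074 for AUR2), and that of AUR2 also without replicate 3 at 0 h (0.0876), on replicates 2 and 3 alone (0.0654) and on their average (0.0601). AUR2 stood 2.03 above wt at 0 h (adjusted p = 0.029). With a filter at the 60th percentile MCM7 was the single marker tested. In the wider class of DNA replication 1 of 3 tested genes rose, MCM7, and all 3 rose in wt cells; 2 rose with the replicate number as a block and none with replicates 2 and 3 averaged. POLA3, a subunit of the polymerase that starts new DNA strands, had signals of 887, 964 and 940.5 at 0 h and 892, 1131 and 1038 at 12 h and did not pass (change 0.13, adjusted p = 0.516), whereas it rose by 2.44 in wt cells. Its response was lower than that of wt by 2.31 (SE 0.21, adjusted p = 1.00e-05, and 0.0259 with replicates 2 and 3 averaged), and it stood 1.62 above wt at 0 h (adjusted p = 9.12e-05). Of 4 tested cell cycle kinases and cyclins AUR1 and AUR2 rose and the others did not pass. What a changing share of dividing cells adds to the other results was not tested.

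Of 7 tested histone genes 3 rose, 2 fell and 2 did not pass, again against 28% and 21.3% of all genes tested. The core histone genes HTB1 and HTB2 rose by 1.22 and 2.01, and the linker histone HIS1-3, known to respond to drought, fell from 345, 975 and 809 to 8.82, 10.3 and 2.46, by 5.9 (SE 0.52, adjusted p = 2.16e-07). In wt cells HTB1 and HTB2 rose by 1.47 and 2.91 and HIS1-3 fell by 5.39.

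Genes of carbon supply split between isoforms. ATP-citrate lyase makes acetyl-CoA in the cytosol from citrate. Its subunit gene ACLA-2 rose from 382, 477 and 376 to 3205, 4567 and 4367, by 3.27 (SE 0.22, adjusted p = 1.76e-08), and ACLA-1 rose by 2.07. ACLA-3 fell from 3371, 2550.2 and 2501 to 737, 878 and 760.0, by 1.81 (SE 0.18, adjusted p = 5.36e-07). ACLA-2 rose by 0.99 in wt cells, and its response was higher in the SND1 line by 2.28 (adjusted p = 4.43e-04, and 0.0689 with replicates 2 and 3 averaged). ACLA-1 changed by 0.08 in wt cells, a difference of 1.99 (adjusted p = 0.033). ACLA-3 fell by 2.04 in wt cells. Of 7 tested subunits of succinate and isocitrate dehydrogenase, enzymes of the tricarboxylic acid cycle, 6 rose, among them IDH-III by 3.54 and IDH-VI by 2.45, against 3.5 and 2.91 in wt cells.

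Of 12 listed genes of sugar starvation 3 were tested, of which 2 fell and 1 did not pass. MCCA, a subunit of the carboxylase that degrades leucine, went from 3602, 1838 and 2309 to 11.7, 12.8 and 6.15, by 7.45 (SE 0.46, adjusted p = 5.99e-09), and IVD, the step before it, from 13022, 7587 and 7106 to 531, 683 and 503, a change of -3.96. Replicate 1 was the highest of the 3 at 0 h for both. In the family of branched-chain amino acid breakdown, which includes them, 9 of 10 tested genes fell, with a median of -3.12 in the SND1 line and -3.47 in wt cells. MCCB, the partner subunit of MCCA, fell by 3.44, ETFQO, which passes electrons from these steps to the respiratory chain, by 2.7, ALDH6B2, of valine breakdown, by 2.95, and MGL, which degrades methionine, by 4.93.

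AMY1, a secreted alpha-amylase, was the starvation gene that did not pass. Its signals were 266, 121 and 82.6 at 0 h and 51.9, 101 and 104 at 12 h, the groups overlapped, and the change was -0.74 (adjusted p = 0.199), or 0.03 with replicates 2 and 3 only. In wt cells AMY1 fell by 5.26, from 1086 ± 108 to 26 ± 11.9 (SD, n = 3). The SND1 line already stood lower than wt at 0 h, by 2.92 (adjusted p = 0.0035). The responses differed by 4.52 (SE 0.65, adjusted p = 6.07e-04, and 0.0851 with replicates 2 and 3 averaged).

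Of 10 tested autophagy genes 9 fell and 1 did not pass, with a median of -1.71, and 9 fell in wt cells, with a median of -1.85. ATG8 proteins coat the membrane of the autophagosome. ATG8F went from 13792, 11810.2 and 12277 to 1109, 1104 and 948, by 3.58 (SE 0.16, adjusted p = 2.25e-10), ATG8E from 4278, 4353 and 2956 to 136, 165 and 148, by 4.63, and ATG8C by 1.53. The arrays of the 2 times were far apart for all 3, and none of the differences from wt passed (adjusted p = 0.843, 0.913 and 0.862). ATG8H fell by 2.71, from 520.3 ± 106 to 75.6 ± 13.4, and fell by 4.9 in wt cells, a difference of 2.2 (SE 0.60, adjusted p = 0.0418). The call for that difference was lost when any 1 of 11 arrays was left out, all but wt replicate 1 at 0 h (adjusted p = 0.0513 to 0.0976), without a filter (0.0593) and with replicates 2 and 3 averaged (0.488). Without SND1 replicate 1 at 12 h 1 autophagy gene rose.

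Of 8 tested photosynthesis genes 4 fell and 4 did not pass, with a median of -2.48, and with the replicate number as a block 7 fell. LHCB4.1, an antenna protein of photosystem II, went from 2972, 1595 and 1595 to 24.3, 31.2 and 34.4, by 5.85 (SE 0.51, adjusted p = 1.71e-07). PSAN, of photosystem I, fell by 4.92, and LHCB4.2 fell by 5.36. RCA, which activates Rubisco and was the single tested member of the 6 markers of photosynthetic cells, fell from 660.3 ± 187 to 48.5 ± 7.13, by 3.63. All 4 fell in wt cells, with changes of -6.32 to -4.07. Of 68 tested genes of the plastid genome 4 fell, against 21.3% of all genes tested, none rose and 64 did not pass. Their median was -0.57 in the SND1 line and -0.36 in wt cells. Their count of falls depended on the replicates: it was 0 without SND1 replicate 1 or 2 at 0 h, without replicate 2 or 3 at 12 h and with replicates 2 and 3 averaged, 7 without replicate 1 at 12 h, 34 on replicates 2 and 3 alone and 41 with the replicate number as a block. It was 1 without a filter or without an intensity trend, 7 with quantile normalization and 12 in a fit of only the arrays compared.

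Of 6 tested genes of cold and dehydration response 4 fell and 2 did not pass. COR47 and LTI30, dehydrins that protect cells under water loss, fell by 5.18 and 5.19, and COR27, a cold-regulated gene, by 5.01. COR47 went from 5287, 5693 and 6132 to 436, 102 and 77.7, with replicate 1 the highest at 12 h. OSM34, an osmotin-like defence protein, fell from 25276, 22220.0 and 22788 to 559, 526 and 507, by 5.45 (SE 0.41, adjusted p = 4.84e-08), and PDF1.4, of the defensin family, from 12090.1 ± 411 to 65.8 ± 19.4, a change of -7.47. Jacalin lectins, sugar-binding proteins, were found by symbol, and the 3 tested under such a symbol fell. JAL33 went from 24091 ± 3084 to 2748 ± 1302, a change of -3.22, JAL22 changed by -3.73 and JAL34 by -2.48. Lectin loci without a symbol were not counted with them. ALDH7B4, an aldehyde dehydrogenase of stress, fell by 3.61. In wt cells all of these fell too, with changes of -6.39 to -1.91.

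**Figure D4:**
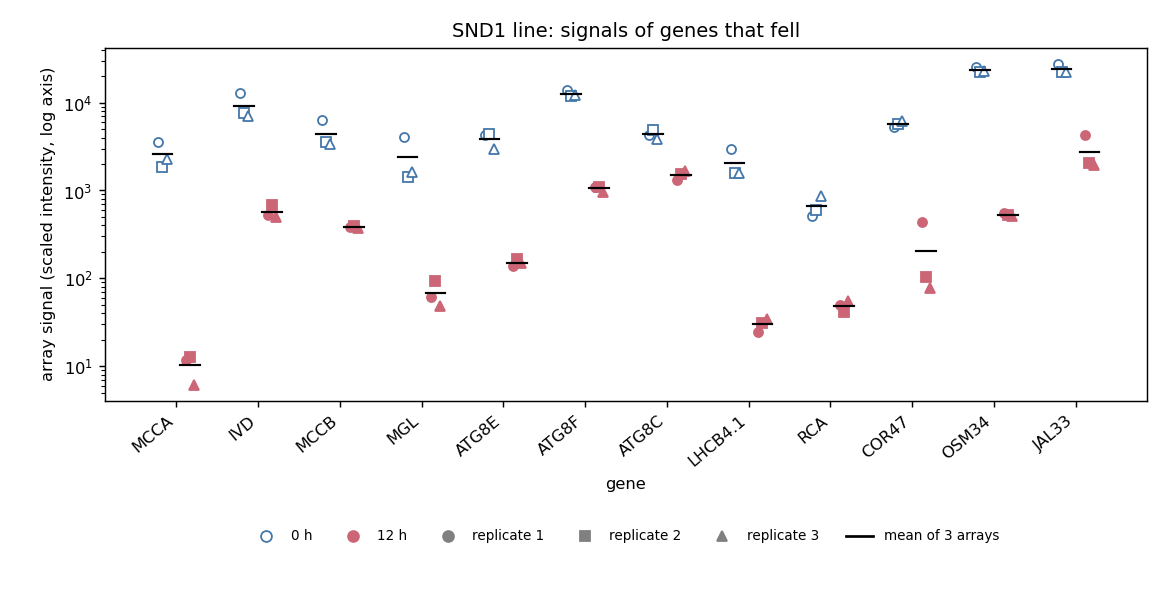
Signals of 12 genes that fell, on the 6 arrays of the SND1 line and a log axis, with open blue symbols for 0 h, filled red symbols for 12 h, 1 symbol shape per replicate and a bar at the mean. For every gene shown the 3 arrays at 12 h lie below the 3 at 0 h.

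The largest falls of all were at loci without a symbol in the annotation. AT2G32150 fell by 9.13 (SE 0.35, adjusted p = 4.25e-11), from 6249, 3199.9 and 3063 to 1.6, 5.19 and 1.84. AT3G15450 fell by 8.73, from 24205, 17798 and 17243 to 57.6, 25.1 and 48.7, so that a bright probe set was dim on every array at 12 h. AT1G19530 and AT1G56220 fell by 8.7 and 8.15. AT5G61590, annotated as DEWAX, a repressor of wax synthesis, fell by 7.58, from 6171 ± 3401 to 25.8 ± 7.67. In wt cells these 5 changed by -9.89 to -6.82, and no difference from wt passed.

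The brightest probe sets named among those that rose moved little on the log2 scale, and those among the falls covered a wide range. AT1G52300 rose from 13336, 15037 and 14839 to 26934, 25248 and 26566, by 0.87 (SE 0.16, adjusted p = 2.71e-04), and AT5G20290 by 0.50 (adjusted p = 0.0106, and 0.107 with replicates 2 and 3 averaged). AT1G51200 fell by 0.57 (adjusted p = 0.00405, and 0.0664) and AT1G67360 by 0.90 (adjusted p = 0.0128, and 0.134). AT4G16190 fell by 4.56 (adjusted p = 3.23e-11), from 22553 ± 1929.9 to 969.5 ± 235, and AT1G25275 fell by 2.52, from 22592 ± 2684 to 4025 ± 1122. JAL33 and OSM34, above, were also among the brightest that fell. In wt cells AT1G52300 rose by 1.01 and AT5G20290 by 0.88, and neither difference from wt passed.

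The largest rise and the next were again at loci without a symbol, followed by TBL34, described above. AT3G47400 rose by 9.03 (SE 0.46, adjusted p = 6.90e-10), from 6.65, 10.2 and 4.14 to 5428, 6052 and 5869, and changed by -0.02 in wt cells (adjusted p = 0.975). AT5G60530 went from 60.4, 2.02 and 2.06 to 1934, 4351 and 4699 and rose by 7.95; replicate 1 was the highest at 0 h and the lowest at 12 h. AT1G29660 rose by 7.04, from 1.53 ± 0.981 to 758 ± 27.8, by 2.40 in wt cells and by 8.08 in the VND6 line. GSTU25, a glutathione transferase that detoxifies foreign compounds, rose by 6.46 (SE 0.63), from 50, 47.3 and 19.6 to 2882, 4095 and 3879, and by 2.91 in wt cells. CXE20, of the carboxylesterase family, rose by 4.82, from 154, 109 and 98.9 to 3029.7, 3745 and 3617, and fell by 1.49 in wt cells.

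The 12 genes whose response exceeded that of wt cells most, by 5.69 to 9.05, were AT3G47400, AT5G60530, AT5G16230, AT1G54790, AT5G14510, IRX15, AT4G01240, AT5G57500, CXE20, AT1G52050, AT3G61930 and AT5G03510. AT3G47400 led with 9.05 (SE 0.64, adjusted p = 8.23e-07). In 11 of them the SND1 line rose and wt cells did not pass as higher. AT3G61930 fell in both, by 3.39 from 3850.0, 3085 and 2317 to 109, 446 and 464 in the SND1 line and by 9.15 in wt cells. With replicates 2 and 3 averaged 8 of the 12 still passed, and AT5G60530 (adjusted p = 0.13), AT4G01240 (0.0539), AT3G61930 (0.0736) and AT5G03510 (0.0725) did not.

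In the other direction the largest values were smaller. The 8 genes chosen by rule had differences from wt of -3.56 to -2.54, with AT4G20500 first, which rose by 2.23 in the SND1 line and by 5.8 in wt cells (difference -3.56, SE 0.74, adjusted p = 0.00974, and 0.217 with replicates 2 and 3 averaged). AT4G20500 already stood 2.24 above wt at 0 h (adjusted p = 0.0367), and its probe set is of a kind that may match more than 1 transcript. MCM7 and LBD16, described above, were among the 8.

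**Figure D5:**
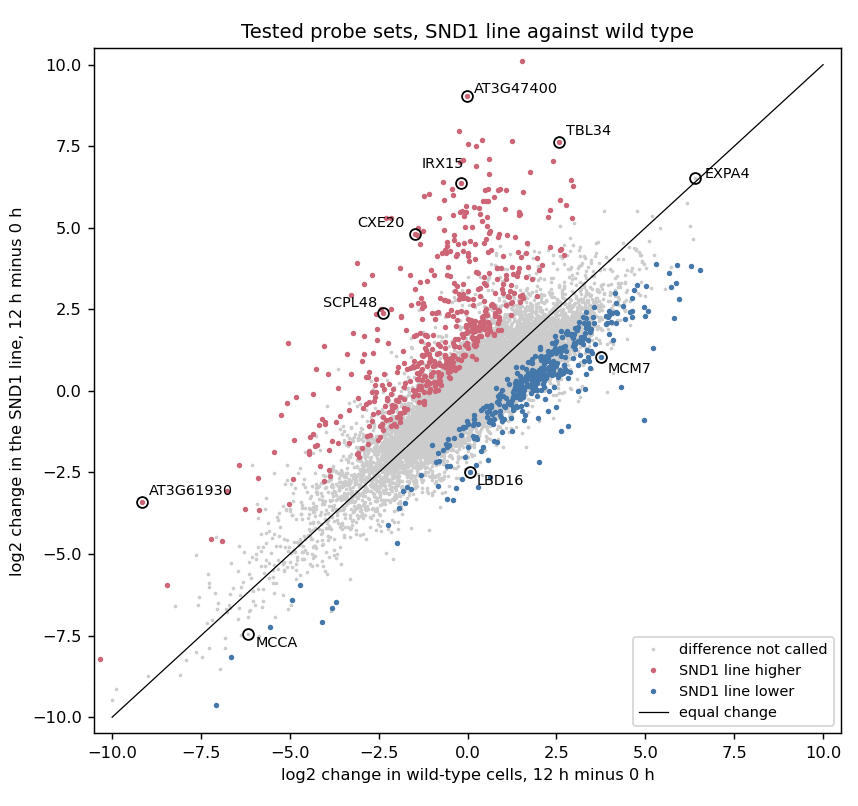
Log2 change of the 15715 tested probe sets in wt cells (horizontal axis) and in the SND1 line (vertical axis), with the 546 probe sets whose response was higher in the SND1 line in red, the 377 lower in blue and the line of equal change in black; 10 named genes are circled. AT3G47400 and IRX15 lie high on the vertical axis near 0 on the horizontal one, and EXPA4 and MCCA lie near the line.

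In the VND6 line 53.5% of the probe sets were called between 0 h and 12 h, 28.8% higher and 24.7% lower. The SND1 response differed from the VND6 response in 117 probe sets (0.745%), higher in 48 (0.305%) and lower in 69 (0.439%). That count was 66 to 194 with 1 array left out, 12 with replicates 2 and 3 averaged and 2586 on those replicates alone. The comparisons with wt and with VND6 cells use the same SND1 arrays, so their values are given side by side only. IRX15 rose by 6.38 in the SND1 line and by 2.81 in the VND6 line, a difference of 3.56 (SE 0.59, adjusted p = 0.00665). It did not pass with a filter at the 60th percentile (adjusted p = 0.131), without a pseudocount (0.162) or with replicates 2 and 3 averaged (0.481).

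The highest values by rule were those of AT5G16230, which rose by 5.31 in the SND1 line and changed by -0.18 in the VND6 line (difference 5.5, SE 0.88, adjusted p = 0.00464, and 0.27 with replicates 2 and 3 averaged), AT3G03770 (4.93) and AT1G52060 (4.86). AT1G52060 had signals of 40.3, 9.52 and 32.3 at 0 h and 1154, 2469 and 3147 at 12 h in the SND1 line, with replicate 1 the lowest at 12 h. The difference of AT1G52060 (adjusted p = 0.00665) was lost without a pseudocount (0.0692) and with replicates 2 and 3 averaged (0.359). That of AT3G03770 (0.0124) was lost without a pseudocount (0.239), without SND1 replicate 2 (0.0572) or 3 (0.0516) at 12 h, and with replicates 2 and 3 averaged (0.513), and its value was 6.96 without a pseudocount and 3.24 with one 4 times larger.

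Other genes rose further in the VND6 line. PRX72 did not pass in the SND1 line, as above, and rose by 7.63 in the VND6 line (difference -7.99, SE 0.82, adjusted p = 7.46e-05). AT5G26330 rose from 8.78, 1.1 and 4.32 to 52.6, 20.4 and 25.2 in the SND1 line, by 2.03, and by 9.78 in the VND6 line (difference -7.75, SE 0.72, adjusted p = 3.22e-05). Its rise in the SND1 line was 3.11 without a pseudocount and 1.15 with one 4 times larger. AT1G70500 rose in both lines, by 5.5 and 9.85, and its difference of -4.35 (adjusted p = 0.00452) was lost without a pseudocount (0.368) and with replicates 2 and 3 averaged (0.224). AT4G28650, annotated as PXL2, a receptor kinase related to the receptor of the CLE41 peptide, rose from 41.5, 29.1 and 43.5 to 178, 226 and 191, by 2.27, and by 6.08 in the VND6 line (difference -3.81, adjusted p = 0.00197, and 0.107 with replicates 2 and 3 averaged).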

How the data were processed

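RNA of 18 arrays, 3 for each of 6 groups, was measured on Affymetrix ATH1 arrays. The deposited values are linear signal intensities. The submitters' processing notes name GCOS, the scanner maker's software, with a version not given in the sources used here; their trimmed means lie near 500 on every array. The labels name a pair of labelling kits without tying them to samples, so the kit could not be tested as a batch. No detection calls were used, and for arrays their number limits the precision.

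Of 22810 probe sets 64 controls were left out, and 15715 above the 40th percentile of their own array on at least 3 arrays were tested as log2(signal + 4.32), the pseudocount being the 10th percentile of all values. A limma model (version 3.58.1, R 4.3.3) took the 6 groups of the 18 arrays as means (eBayes with an intensity trend, 12 residual degrees of freedom), and p-values were adjusted by Benjamini-Hochberg over all probe sets tested; a call is an adjusted p under 0.05. Every adjusted p in the text is limma's. The fit was tested on simulated data with noise drawn independently for each array. That test leaves out the correlation between arrays of one number, described below, and does not cover its effect on the calls. The platform annotation gave 13513 probe sets 1 gene, 503 several and 8730 none, and 13436 of the first were matched to RefSeq (TAIR10.1) for symbols; 1125 of 8703 genes tested have one. A gene with several probe sets was read from the brightest, and 149 of the 150 named genes rest on a probe set of a kind specific to 1 transcript.

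The genes named were the 14 largest rises and falls and the 8 brightest each way among genes whose arrays did not overlap, the 12 highest and 8 lowest differences from wt, the 6 each way from VND6, and up to 4 members each way of each list or class, from which those with an annotation or a large value were taken. Families by symbol, and the genes named from them or for a large change and a symbol, were added after the values were seen. The members and lists were chosen with earlier results of these data known.

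Replicate numbers, taken from the titles, paired the SND1 arrays: arrays of one number, each taken relative to the mean of its group, correlated at 0.326, 0.188 and 0.190. Arrays of numbers 2 and 3 correlated across the times at 0.164 and 0.173, and number 1 with the others at -0.247 to -0.238, so the numbers separate 1 from 2 and 3. With wt arrays same-numbered arrays correlated at 0.228 to 0.486; with VND6 at 12 h replicate 2 reached 0.0384. A fit on the arrays compared with the number as a block is therefore given where it changes a result that was followed. Of the differences between responses, only the 39 from wt and 8 from VND6 flagged below were followed. Whether the block or another alternative moves the other differences, passed or not, was not tested. The alternatives tried were quantile normalization, no filter, a 60th percentile filter, no pseudocount, a 4 times larger pseudocount, no intensity trend, only the arrays compared, the block, replicates 2 and 3 only, replicates 2 and 3 averaged, and each array left out in turn.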

Additional observations from a re-analysis of the deposited data

Results flagged for a closer look

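The results in this part are differences between responses under the same contrast, 12 h minus 0 h, for which limma's test of the difference passed; those from wt are given first. In wall polysaccharides the SND1 response was higher by 6.57 for IRX15, 4.52 for IRX15L, 1.36 for IRX10, 5.06 for TBL34 and 2.06 for USP. Among the cell death list and the carboxypeptidase-like family it was higher by 5.17 for AT4G18425, 4.75 for SCPL48, 4.13 for AT4G04460, 3.26 for SCPL20 and 2.88 for SCPL25. For the cytoskeleton the differences were 1.69 for TUA6, 1.37 for TUB6, 2.57 for IQD30, 1.47 for KINESIN-13A and 1.69 for SPK1. Genes of membranes and traffic gave 2.86 for PRA1.B4, 1.27 for VHA-A1 and 4.96 for TET13.

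Of the regulators of auxin response IAA20 was higher by 4.45, and LBD16 differed by -2.54. EXPA20 differed by -2.03, GH9A3 by -1.56 and ATG8H by 2.2. MCM7 differed by -2.69, POLA3 by -2.31, ACLA-2 by 2.28, AMY1 by 4.52 and CXE20 by 6.31. At loci without a symbol the differences were 9.05 for AT3G47400, 8.2 for AT5G60530, 7.46 for AT5G16230, 7.23 for AT1G54790, 6.64 for AT5G14510 and 6.52 for AT4G01240. The remaining ones were 6.41 for AT5G57500, 6.11 for AT1G52050, 5.76 for AT3G61930, 5.69 for AT5G03510 and -3.56 for AT4G20500.

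From the VND6 response the SND1 response differed by 3.56 for IRX15, 5.5 for AT5G16230, 4.93 for AT3G03770 and 4.86 for AT1G52060, and in the other direction by -7.99 for PRX72, -7.75 for AT5G26330, -4.35 for AT1G70500 and -3.81 for AT4G28650.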

How the results depend on the processing

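Of 197 values for named genes 140 kept their direction and side of the threshold under every alternative tried, and 57 did not. The 7951 probe sets called in the SND1 line became 4955 with replicates 2 and 3 averaged and 6859 to 7212 with 1 array left out. They became 9300 with only the arrays compared, 10002 with the replicate number as a block and 10525 on replicates 2 and 3 alone. The 923 called for the difference from wt became 2274 with the replicate number as a block, 5469 on replicates 2 and 3 alone and 62 on their average (61 higher and 1 lower). With 1 array left out that count was 463 to 1041: it was 526 and 498 without wt replicates 2 and 3 at 12 h, 487 and 515 without SND1 replicates 2 and 3 at 0 h, and 463 and 474 without them at 12 h. The 117 called for the difference from VND6 became 2586 on replicates 2 and 3 alone and 12 on their average, and 66 to 194 with 1 array left out: 194 and 77 without VND6 replicates 1 and 2 at 0 h, 74 and 66 without replicates 2 and 3 at 12 h, and 75 without SND1 replicate 2 at 12 h. The block ended no call of a named gene. Of the 39 differences from wt followed under the alternatives 10 passed with replicates 2 and 3 averaged, and of the 8 from VND6 2 did. Of 142 calls within the line 126 did. The averaged fit has fewer values per group; beyond that the cause of these shifts was not tested.

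The direction of 4 genes that passed in no direction turned. On replicates 2 and 3 alone AMY1 stood at 0.0283 and BETA-VPE at -0.199. With 1 array left out BETA-VPE lay between -0.0520 and 0.34, EXPA20 between -0.0356 and 0.32 and PRX71 between -1.08 and 0.41. The cause was not tested. Of 72 counts of gene sets 22 moved by more than 1.5 times under at least 1 alternative, among them the markers of dividing cells (3 to 1) and the nucleotide sugar enzymes (6 to 2 with replicates 2 and 3 averaged). Near the floor of the scale the pseudocount sets the size of a change.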
